A study of Caenorhabditis elegans with 2 samples.

Results

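Candidate PAG-3 binding regions at transfer RNA (tRNA) genes were taken from the authors' list derived from both replicates together. That list is labelled as peaks and background, the input for a later filter on reproducibility that 327 of its 21336 regions passed. A candidate region is therefore not by itself a called binding site. A region belonged here when its summit, the base of highest signal, lay within 100 bp of a gene annotated as tRNA, and 249 of 21336 candidate regions did. The study was a chromatin immunoprecipitation and sequencing (ChIP-seq) experiment on whole late embryos of Caenorhabditis elegans, with 2 biological replicates of 1 group and no second condition. The hermaphrodite strain, OP154 (unc-119(ed3) III; wgIs154), carried a transgene for PAG-3 with GFP-FLAG at its C terminus, and embryos were collected 4 hours after synchronisation by egg bleaching. Chromatin was pulled down with an antibody to GFP. The control libraries were not analysed here, and the lists give no read counts, so the sequencing depth behind each region is unknown. Since embryos were processed whole, a few cells with strong binding and many cells with weak binding cannot be told apart.

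In worms PAG-3, which binds DNA through zinc fingers and is related to vertebrate Gfi proteins, is known for its part in the fates of touch neurons and ventral cord motor neurons. Transfer RNA genes are short and are transcribed by RNA polymerase III. Their promoter lies inside the gene: the A box and the B box are bound by the factor TFIIIC, which recruits TFIIIB and then the polymerase. The same amino acid is served by many gene copies, often identical in sequence and scattered over the genome, and transcription ends at a run of T.

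The sequences below are 4 of the strongest genes, shown because the internal promoter is the element that they share. Capitals mark the A box (first run) and the B box (second run), read 5′ to 3′ along the gene, and the sequences and their ce11 coordinates come from the RefSeq genome. C04A11.t1 reads a leucine codon and lies at chrX:13665555-13665673 on the plus strand. F15G9.t1, an alanine gene, lies at chrX:9743589-9743660 on the plus strand, and T07H6.t2, also among the 15 strongest, has the same sequence. C33G3.t2, a lysine gene, lies at chrX:14063946-14064018 on the minus strand. F34H10.t1, an alanine gene with another anticodon, lies at chrX:9637852-9637923 on the minus strand.
C04A11.t1: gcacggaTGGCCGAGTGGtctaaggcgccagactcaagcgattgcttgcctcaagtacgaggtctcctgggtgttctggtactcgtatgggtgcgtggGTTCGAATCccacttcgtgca
F15G9.t1: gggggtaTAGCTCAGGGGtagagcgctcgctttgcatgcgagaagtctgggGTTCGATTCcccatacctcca
C33G3.t2: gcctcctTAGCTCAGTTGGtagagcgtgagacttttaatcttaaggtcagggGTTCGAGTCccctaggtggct
F34H10.t1: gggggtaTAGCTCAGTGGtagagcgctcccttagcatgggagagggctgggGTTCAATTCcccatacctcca
All 4 hold both boxes, and C04A11.t1, the longest, carries an intron. The 4 genes are examples that ranked 10, 20, 37 and 72 among all candidates, with other tRNA genes between them. Of all 612 nuclear tRNA genes, 587 hold the B box letters and 559 a form of the A box, so the boxes do not mark strong regions.

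A further pair of sequences shows copies of 1 proline gene that differ in the binding data. ZK899.t1, with the strongest region of its 24 identical copies, is shown with the 50 bp before it at chrX:9467729-9467850 on the minus strand. ZK970.t2, which has no candidate region, is shown in the same way at chrII:10304961-10305082 on the plus strand. Capitals mark the gene, which is the same in both, and the lower case letters before it differ.
ZK899.t1: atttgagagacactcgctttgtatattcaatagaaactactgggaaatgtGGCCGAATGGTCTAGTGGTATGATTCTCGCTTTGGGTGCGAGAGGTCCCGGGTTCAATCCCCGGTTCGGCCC
ZK970.t2: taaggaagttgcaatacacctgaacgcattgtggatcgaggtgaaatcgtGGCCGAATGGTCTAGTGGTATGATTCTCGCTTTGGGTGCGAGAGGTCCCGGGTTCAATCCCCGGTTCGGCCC
The upstream stretch was 66% A and T in ZK899.t1 and 56% in ZK970.t2. This pair runs opposite to the medians of its family, which were 57% at copies with a region and 60% at copies without.

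The regions at tRNA genes lay high in the list. Their median signal value, the strength that the authors' peak caller assigned on a scale not given in the sources used here, was 51.8, against 32.0 for all candidates. Their median rank percentile was 90.1, where 100 is the strongest candidate. With all candidates split by signal into 10 equal classes, the strongest class held 126 of the 249 (50.6%), and 54 lay below the median of the whole list. The weakest member had a signal of 24.3, next to the lowest of any candidate at 24.2. The members thus spread from the top of the list to near its floor, with the bulk at the top.

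**Figure D1:**
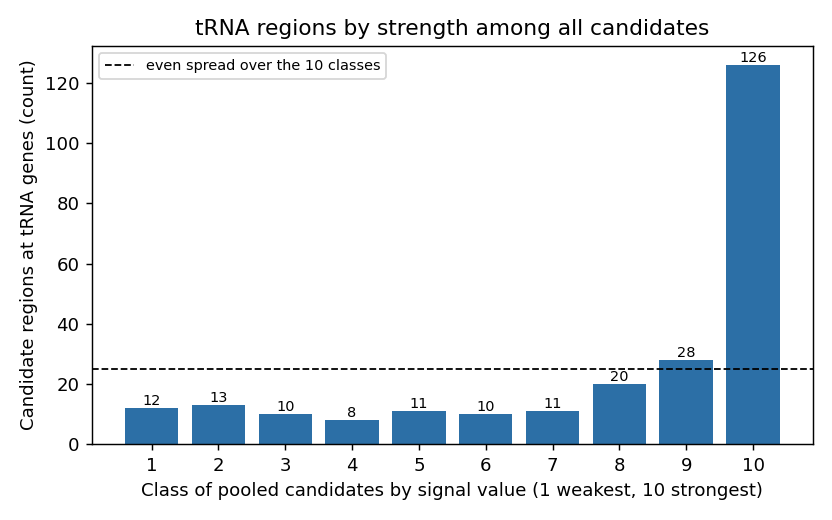
Number of tRNA regions (vertical axis, count) in 10 equal classes of the 21336 pooled candidates by signal value (horizontal axis, 1 weakest to 10 strongest); the dashed line is an even spread. The strongest class holds 126 regions and the 7 weakest hold 8 to 13 each.

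Of the 249 regions, 56 (22.5%) were in the authors' list of reproducible peaks from the irreproducible discovery rate procedure (IDR), against 1.53% of all pooled candidates. Every one of its 327 peaks ranked 327 or better in the pooled list, so membership follows from the pooled signal and is no separate measurement. The tRNA members of that list had a median signal of 106, and its other members had 104. The highest signal among tRNA regions outside it was 84.0. No test was made of these shares, since regions of 1 experiment are not replicates.

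Other classes of genes for short RNAs gave values on either side. Regions at small nucleolar RNA (snoRNA) genes, whose products guide RNA modification, numbered 89, of which 29 (32.6%) were IDR peaks, with a median percentile of 89.8. Regions at small nuclear RNA genes, which encode RNAs of the splicing machinery among others, numbered 26, of which 3 (11.5%) were IDR peaks, with a median percentile of 62.4. Candidate regions in promoter windows of protein-coding genes with none of these genes near numbered 6617, of which 144 (2.18%) were IDR peaks. The tRNA and snoRNA regions thus stood at about the same height in the list. The promoter regions stood close to the middle, with a median percentile of 52.1.

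The replicates gave similar pictures of the class as a whole and less similar values for single regions. The 2 replicate lists held 222 and 240 regions at tRNA genes, with median percentiles of 89.4 in replicate 1 and 88.2 in replicate 2. Among the 327 strongest regions of each list, as many as the IDR list holds, 41 were tRNA regions in replicate 1 and 49 in replicate 2. As a share of the tRNA regions that is 18.5% and 20.4%, and over all regions the same cut took 1.42% in replicate 1 and 1.42% in replicate 2. Of the 249 pooled regions, 191 overlapped a region in both replicates and 3 in neither. The same counts over all candidates are not given here, so these do not show whether tRNA regions recur more or less often than others. Over the 191, Spearman's rho between the replicates' signal values was 0.65, a description only, since the points share 2 libraries. The median SD was 17.3% of a region's mean over 2 replicates.

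**Figure D2:**
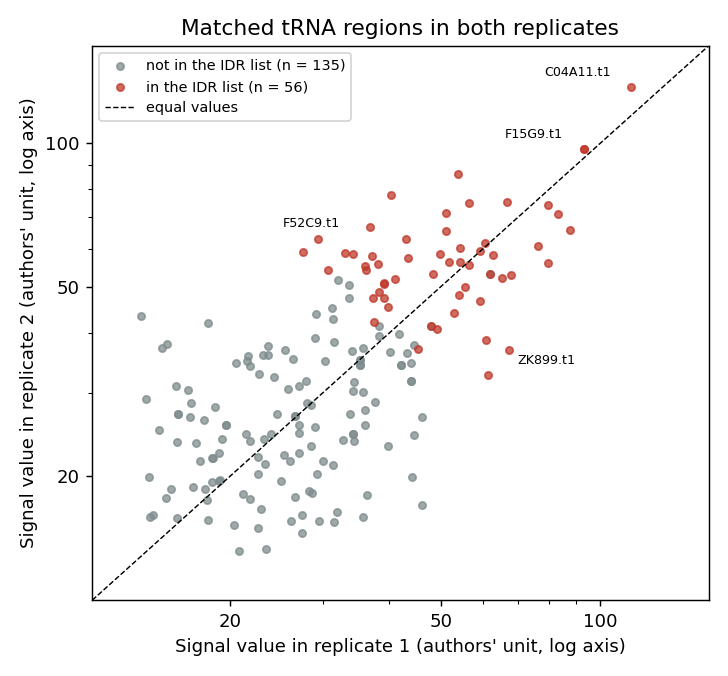
Signal value of the 191 tRNA regions found in both lists, replicate 1 on the horizontal and replicate 2 on the vertical axis, both log axes in the authors' unit; red points are the 56 in the IDR list and the dashed line marks equal values. C04A11.t1 and F15G9.t1 lie near the line and above nearly all others, and F52C9.t1 and ZK899.t1 lie on opposite sides of it.

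The strongest region was at C04A11.t1, chrX:13665475-13665680, which ranked 10 of all candidates with a pooled signal of 240. Its signal was 114 in replicate 1 and 132 in replicate 2 (mean 123 ± 12.3 SD, n = 2), with ranks of 11 and 10. At 206 bp it was the only tRNA region that was not 450 bp wide. Both replicates placed this leucine gene near the very top of their lists.

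F15G9.t1, an alanine gene in an intron of him-4, the gene for the extracellular matrix protein hemicentin, came next with a pooled signal of 196. It reached 93.3 in replicate 1 and 97.2 in replicate 2 (mean 95.3 ± 2.79 SD, n = 2), and it shares the strand of its host. The strongest intronic gene on the strand opposite to its host was the isoleucine gene T21B4.t1, in the collagen gene col-85. There the signal was 83.1 and 71.2 in replicates 1 and 2 (mean 77.1 ± 8.41 SD, n = 2). The replicates were close together at both genes.

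The isoleucine gene C42D8.t1, between genes on X, followed F15G9.t1 with 87.6 in replicate 1 and 65.7 in replicate 2. The lysine gene C33G3.t2 had 79.8 and 74.3. The cysteine gene C37A2.t1, in an intron of the cyclin E gene cye-1, had 79.7 and 56.0. These 3 genes were stronger in replicate 1 by signal and by rank. The lysine gene W03G11.t1 had 76.4 in replicate 1 and 60.9 in replicate 2, and the glutamate gene C28G1.t1 had 66.7 and 75.3. The threonine gene R01H5.t1 had 54.0 and 86.4, the widest gap of the 10 strongest.

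The remaining 6 of the 15 strongest had pooled signals from 121 to 130. They were the alanine genes F34H10.t1 and T07H6.t2, the tryptophan gene B0523.t1, the aspartate gene F38G1.t2, the valine gene R04D3.t2 and the isoleucine gene F57F5.t1. B0523.t1 lies in an intron of fli-1, which encodes an actin regulator of the flightless family, and F38G1.t2 in one of egl-17, which encodes a fibroblast growth factor. R04D3.t2 had the same signal in both replicates within 3 digits, 59.4 each. Of these 6, F38G1.t2 was the least alike, with 40.3 in replicate 1 and 78.1 in replicate 2.

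Several IDR peaks were carried mostly by 1 replicate. Among the 56, 28 had an overlapping region in the strongest 327 of both replicates, and 2 in neither. Counts for the other IDR peaks are not given here. The strongest overlapping region was taken each time, so 22 of the 249 regions share a replicate region with a neighbour, among them F15G9.t1 and F15G9.t2. Matched instead by the nearest replicate summit within 100 bp, a choice made after seeing the data, the counts were 26 in both and 4 in neither. At F15G9.t2 the summits within 100 bp of the gene had signals of 41.6 in replicate 1 and 31.5 in replicate 2, below the strongest 327 of each. The genes whose replicate values are given here had the same values under both ways of matching, except F15G9.t2. F33G12.t1, an isoleucine gene, ranked 85 in replicate 1 and 1275 in replicate 2, with signals of 61.4 and 32.6. The proline gene ZK899.t1 ranked 56 and 790, and the asparagine gene F41D9.t3 87 and 663. In the other direction, the lysine gene T23F1.t1 ranked 2396 and 134, with signals of 27.5 and 59.3. The threonine gene F52C9.t1 ranked 1825 and 109. Each of these 5 genes was among the 327 strongest in a single replicate.

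The rule places every summit within 100 bp of the gene, and within that window summits were unevenly spread. They fell inside the tRNA gene in 132 of the 249 regions (53.0%), upstream in 75 (30.1%) and downstream in 42 (16.9%). The gene itself makes up 27.2% of that window on average, and each side 36.4%. The median summit was 24 bp from the gene's 5′ end (quartiles -14 and 60), where genes have a median length of 72 bp. Among the IDR peaks 39 of 56 summits (69.6%) were inside the gene. The median position over all 56 was 16.5 bp (quartiles 0.75 and 41.25). That median falls near the A box, but the quartiles reach beyond it on both sides. Just inside the 100 bp limit lay the regions at W09G10.t2 (95 bp, signal 50.5), F21A3.t2 (96 bp, 28.7) and F47G6.t1 (98 bp, 65.5). Just outside it lay those at C18D4.t1 (101 bp, signal 45.5), T14F9.t1 (106 bp, 55.7) and K02D3.t1 (109 bp, 29.1). T14F9.t1 also had an IDR peak within the limit (35 bp, signal 106), and W09G10.t2 shared one with W09G10.t3 (signal 89.5).

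A protein-coding promoter window, from 1000 bp before to 200 bp after a transcript start, held the summit of 70 of the 249 regions (28.1%) and 14 of the 56 IDR peaks (25%). Over all regions the same windows held 31.5% of the candidates and 51.4% of the IDR peaks. Without the regions in such windows, the share of tRNA regions in the IDR list was 23.5%. Another annotated non-coding RNA gene lay near 154 of the 249 regions. The share over all candidates is not given here, so this count is not shown to be particular to tRNA regions.

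Seen from the genes, 250 of the 612 nuclear tRNA genes (40.8%) had a candidate region and 60 (9.80%) had an IDR peak. In comparison 8.04% of protein-coding genes had a candidate summit and 0.125% an IDR summit within 100 bp of a transcript start. The windows are unlike, since that of a tRNA gene also spans the gene itself. In the wider promoter window defined above, the shares of protein-coding genes were 30.9% and 1.11%. Among other short RNA genes, 86 of 346 snoRNA genes (24.9%) had a region and 30 an IDR peak. For microRNA genes, which encode regulators of messenger RNA, the counts were 37 and 1 of 261. In the replicate lists, 221 tRNA genes had a region in replicate 1 and 243 in replicate 2. The pooled list holds no region on the mitochondrial genome, so the annotated 22 mitochondrial tRNA genes could have none. Candidate regions served 2 neighbouring tRNA genes in 7 cases, among them the glycine and glutamate genes M02F4.t1 and M02F4.t2, with a shared signal of 114. With the summit inside the gene, the share of genes fell to 21.6% for candidates and 6.37% for IDR peaks.

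Genes for every amino acid were represented. The share of genes with a region went from 28.2% for serine (11 of 39) and 29.6% for glutamine (8 of 27) to 53.8% for cysteine (7 of 13) and 57.1% for phenylalanine (8 of 14). Alanine genes had an IDR peak in 6 of 34 cases (17.6%) and valine genes in 1 of 31 (3.23%). Each of the 20 standard amino acids had at least 1 gene with an IDR peak, the lowest of the strongest regions being that of the asparagine gene F41D9.t3 at a signal of 101. The single selenocysteine tRNA gene, K11H12.t1, which reads a stop codon as selenocysteine, had a candidate region of signal 41.4 that ranked 4719. Its values were alike in the replicates, 22.6 and 22.01. With 12 to 55 genes for each of the 20, the order of the shares was not tested.

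**Figure D3:**
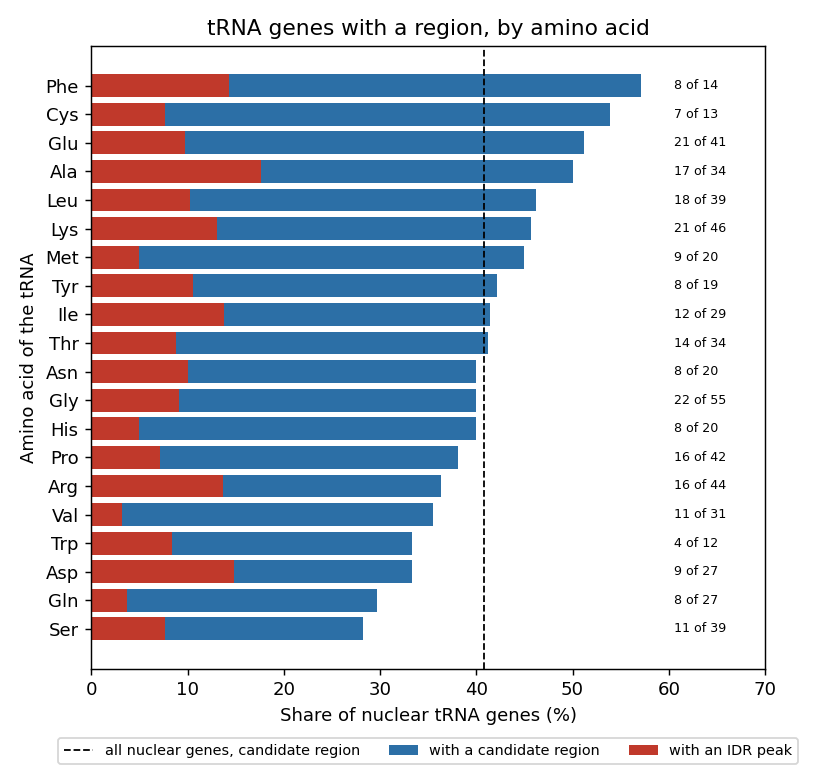
Share of nuclear tRNA genes (horizontal axis, percent) with a candidate region (blue) and with an IDR peak (red, drawn over the blue bar from the same zero) for each of the 20 standard amino acids; counts stand at the right and the dashed line is the share over all 612 genes, 40.8%. Shares go from 28.2% for serine to 57.1% for phenylalanine.

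The X chromosome carries 276 of the 612 genes (45.1%), and their pooled regions had a higher median signal. On X 104 genes (37.7%) had a region and 35 (12.7%) an IDR peak. On the autosomes 146 of 336 (43.5%) had a region and 25 (7.44%) an IDR peak. In replicate 1 alone the shares with a region were 33.7% on X and 38.1% on the autosomes, and in replicate 2 they were level, at 39.5% and 39.9%. The median signal of tRNA regions was 59.9 on X and 45.4 on the autosomes, and 32.0% of the X regions against 15.8% of the autosomal ones were IDR peaks. Among candidates that were not at tRNA genes the IDR share on X was 1.18%. On the autosomes that share ran from 1.02% on II to 1.77% on V. Chromosome V was the autosome closest to X for tRNA regions, with 8 IDR peaks among 26 regions (30.8%), while chromosomes III and IV had 3 of 32 and 3 of 34.

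Counts were close for genes inside and outside other genes. A region was present at 120 of 283 genes in introns of protein-coding genes (42.4%) and at 124 of 319 intergenic genes (38.9%), with IDR peaks at 27 and 32. Within introns, genes on the strand opposite to the host had a region in 55 of 122 cases (45.1%) and an IDR peak in 16 (13.1%). Those on the host's strand had 65 of 161 (40.4%) and 11 (6.83%). Median signals were 52.2 and 48.5. Genes within 1000 bp of a protein-coding start had a region in 105 of 230 cases (45.7%) and those farther off in 145 of 382 (37.96%), with IDR peaks at 9.13% and 10.2%.

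Per gene, isolated genes carried regions more often than genes in clusters, by count. Of 376 genes with no other tRNA gene within 1000 bp, 177 (47.1%) had a region and 46 (12.2%) an IDR peak. For genes in pairs the counts were 48 of 156 (30.8%) and 13 (8.33%). For genes in clusters of 3 or more they were 25 of 80 (31.2%) and 1 (1.25%). With genes joined up to 5000 bp apart the shares with a region were 50.5%, 37.3% and 27.0%. Counting every gene that a region overlaps, the shares were 51.9% for single genes, 36.5% in pairs and 41.2% in larger clusters. Counted per cluster the order was different: 36 of 78 pairs (46.2%) had at least 1 region, close to the single genes, and 17 of 22 clusters of 3 or more genes (77.3%) did. In none of the 22 did every gene have a region.

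Clusters of 4 or more genes differed among themselves. The 6 genes F22F1.t2 to F22F1.t7 on X, for serine, aspartate, methionine and isoleucine, had regions at 2, the stronger at F22F1.t6 with a signal of 71.4. The 6 histidine genes of the F28H6 cluster on X had none. In that cluster a median of 23.3% of 36-base words in and around the genes occurred once in the genome, against a median of 85.5% both over genes with a non-IDR candidate region and over genes with none. The 5 arginine and cysteine genes of the K01A12 cluster had 1 region, with a signal of 52.2, and the 5 glutamine genes of the H08J11 cluster had 1, with 55.4. Of the 4-gene clusters, Y65A5A on IV had regions at 3 genes, the strongest with 59.97, C12C8 had 2 and T01B4 had 1. The 4 tyrosine genes of the R11 cluster were the exception with an IDR peak, at R11.t1 with a signal of 89.7.

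Uniqueness in sequence and the copy number were set beside these counts. None of the 17 genes with 50% or fewer unique words had a region, whereas 210 of 460 with 75 to 90% did (45.7%), and 30 of 98 with over 90% (30.6%). How far alignment limits the counts at repeated genes was not tested. Genes whose sequence occurs once in the genome had fewer regions, 41 of 140 (29.3%), and 5 IDR peaks (3.57%). Genes with 2 to 9 identical copies had 65 of 153 (42.5%) and 18 (11.8%), and those with 10 or more 144 of 319 (45.1%) and 37 (11.6%). The strongest region of all, at C04A11.t1, belongs to a gene whose words are over 90% unique.

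Identical genes differed widely in signal. The 612 genes have 200 distinct sequences, and 20 families hold 10 or more identical copies, 317 genes in all. In each of the 20 families some copies had a region and others did not, with shares from 27.3% in a serine family of 11 to 66.7% in a glutamate family of 15. The highest signal in a family was 1.86 to 6.24 times its lowest. In 17 families at least 1 copy had an IDR peak. Among the 24 proline copies of ZK899.t1, 8 had a pooled region, with signals from 24.8 at ZK970.t1 to 105 at ZK899.t1, and 16 had none. Of the 8, W09D6.t1 and W09D6.t2 share 1 region of signal 26.4. Of the 16, C48C5.t3 had a region in both replicate lists, with signals of 16.9 and 26.7. F02H6.t1, C16B8.t1 and F46G11.t1 had one in a single replicate list. Every copy in a family has the same internal promoter letters.

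**Figure D4:**
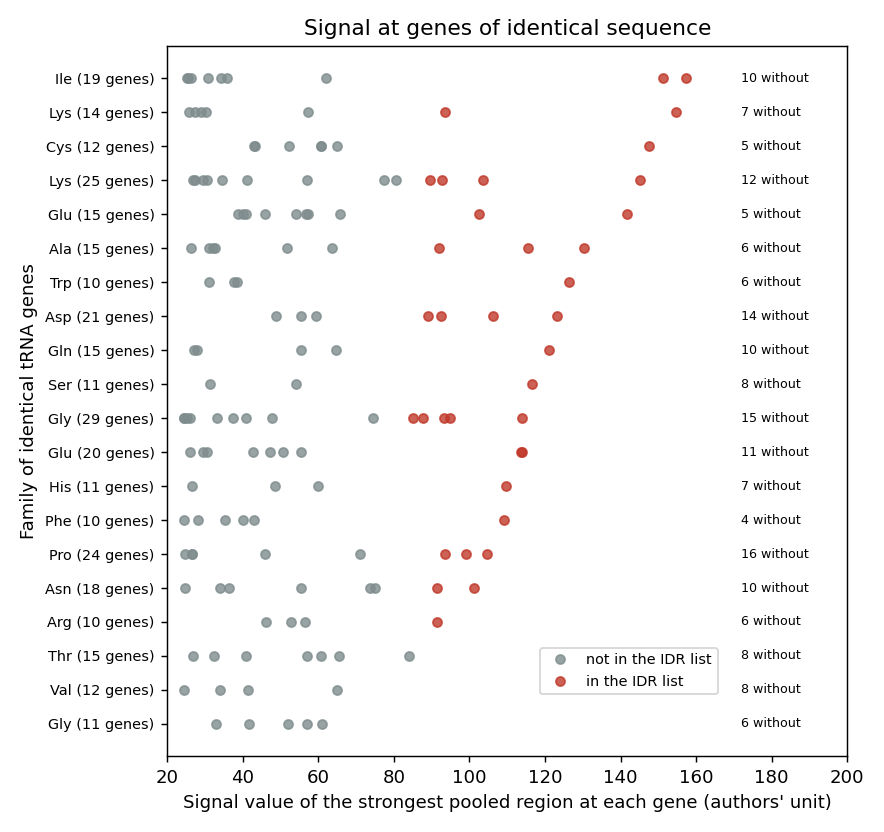
Pooled signal value (horizontal axis, authors' unit) of the strongest region at each gene of the 20 families of 10 or more identical tRNA genes (rows); red points are in the IDR list, and the number at the right counts copies with no region. Within the proline family of 24 genes the points run from 24.8 to 105 and 16 copies have none.

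The sequence just before the gene differed between genes with and without a region. The 50 bp upstream had a median A and T content of 54% at genes with a candidate region outside the IDR list and of 55% at IDR genes (means 53.5 ± 8.58 SD over 190 genes and 54.1 ± 7.13 SD over 60 genes). At the 362 genes without a region the median was 62% (mean 60.01 ± 9.35 SD). The share of genes with a region was 57.6% below 50% A and T (68 of 118), 53.3% at 50 to 59%, 26.8% at 60 to 69% and 12.7% at 70% or more (9 of 71). No gene of the last class had an IDR peak. The ordering was alike on X (67.6%, 51.1%, 25.7% and 14.0%) and on the autosomes (53.6%, 55.0%, 28.0% and 10.7%), except for the 2 lowest classes on the autosomes, which were nearly level.

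The same comparison within families used genes that share every base of the annotated gene. In 19 of the 20 large families the median upstream A and T content was lower at copies with a region than at copies without, and in 1, a valine family, it was higher. The median difference over the 20 families was 8 points, and 4 of the 19 differed by 4 points or less. In the glycine family of 29 it was 56% against 66%, and in the proline family of 24 it was 57% against 60%. The widest gap, 46% against 64%, was in the histidine family of 11, where 6 of the 7 copies without a region are the F28H6 cluster with its few unique words. Among genes with no other tRNA gene within 1000 bp, the shares with a region were 59.3%, 58.0%, 33.6% and 11.4% from the lowest to the highest class. The candidate list as a whole also leaned away from A and T. The 101 bp around all summits had a median of 57.4%, against 64.6% for the nuclear genome. For the tRNA regions that median was 50.5%, but their summits were chosen near tRNA genes, so the windows often hold bases of the genes themselves. No such window is given for genes without a region. For protein-coding starts, 21.2% of those with under 50% A and T upstream had a candidate summit within 100 bp, and 4.82% to 7.10% in the other classes. The part of base composition in the signal was not tested.

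**Figure D5:**
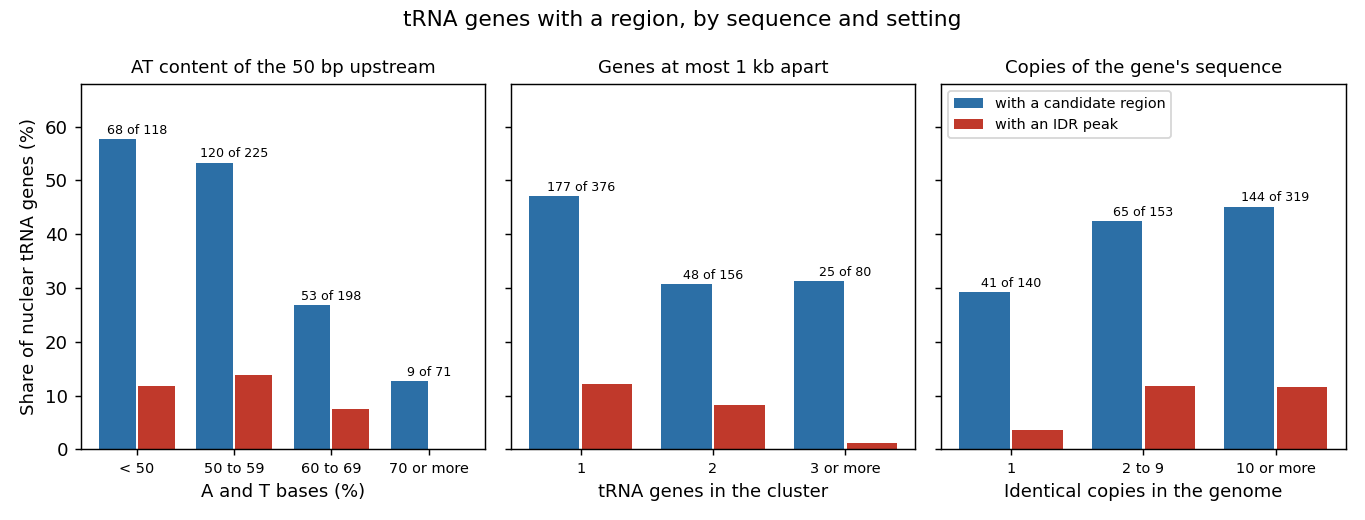
Share of nuclear tRNA genes (vertical axis, percent) with a candidate region (blue) and with an IDR peak (red), by A and T content of the 50 bp upstream, by number of tRNA genes in a cluster and by number of identical copies; counts of genes with a region stand above the bars. The share falls from 57.6% to 12.7% over the upstream classes.

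The internal promoter was described by its letters. The B box was searched inside each gene as GTTCGANNC or GTTCAANNC, where N is any base, and was found in 587 of 612 genes. Of these 239 (40.7%) had a region and 60 an IDR peak. The other 25 had a region in 11 cases (44.0%) and no IDR peak, and 9 of them are identical methionine genes, among them F22F1.t6. Genes outside these letters are not shown to lack a B box, and the absence of IDR peaks among 25 genes was not tested. A form of the A box was found in 559 genes, of which 239 (42.8%) had a region. Of the 53 genes without it, 11 (20.8%) did, and 3 of these had an IDR peak. A run of 4 T bases within 25 bp after the gene was present in 604 of the 612, of which 41.2% had a region. Of the 8 without it 1 had a region, too few to compare. The 29 genes with an intron had a region in 14 cases (48.3%) and an IDR peak in 4 (13.8%).

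The genes that make and process tRNA were examined in the same candidate list. Of 16 matched genes for RNA polymerase III subunits and factors, 9 had a candidate region in their promoter window and none an IDR peak. Of all protein-coding genes, 30.9% had a candidate summit and 1.11% an IDR summit in that window, so no peak among 16 genes is near the background. The strongest was at rpb-10, a subunit shared by the polymerases, with a signal of 45.8 and rank 3294. The TFIIIC genes tftc-1 and tftc-3 had weak regions (33.4 and 24.5), and brf-1, for a TFIIIB subunit, had none. Of 14 tRNA processing genes, 6 had a region and 1 an IDR peak. That one was rpr-1, the RNA of RNase P, which trims the 5′ end of tRNA and is itself a short non-coding RNA gene, with a signal of 205 at rank 15. It was counted within 100 bp of the gene itself, as for tRNA genes.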

How the data were processed

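The study measured PAG-3 binding by ChIP-seq in 2 biological replicates of whole late embryos. The deposited lists give, for each region, a −log10 q value and the signal that the authors' peak caller assigned; their README files say that the pooled list derives from both replicates. For the caller, the aligner and the IDR threshold, the name or value is not given in the sources used here. A p-value column is empty, and the ce10 lists were not used, since no coordinates were converted. Annotation was WBcel235 (the ce11 sequence), Ensembl release 115, with amino acids from RefSeq at 612 of 612 nuclear genes placed alike (607 with an amino acid). Regions were matched between lists where they shared at least 1 bp, and ranked by signal. Python 3.11.15, numpy 2.4.6, pandas 2.3.3 and matplotlib 3.10.9 were used, and matching was tested on simulated data. No test was made: 1 group of 2 replicates allows none. Genes named were the 15 strongest, the strongest per amino acid and host strand, the largest clusters, those nearest the 100 bp limit, the IDR members with the 3 largest ratios of replicate ranks in each direction, and the lists. Members and lists were chosen with earlier results of these data known. Depth is unknown, so no counting interval is given.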

Additional observations from a re-analysis of the deposited data

How the results depend on the processing

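With the summit inside the gene, 132 regions remained of 249, with 29.5% in the IDR list and a median percentile of 93.1. Such a region was present at 21.6% of genes, and an IDR peak at 6.37%. With summits within 500 bp, 17.4% of regions were IDR peaks, the median percentile was 82.5 and 53.3% of genes had a region. The stronger part of the IDR list held 12.05% of the regions. Leaving out the 154 regions near another non-coding RNA gene, most of the 249, gave 21.1%. Taking 1 region per cluster gave 23.9%. Among genes whose sequence occurs once, 29.3% had a region and 3.57% an IDR peak. Counting any gene overlapped by a region, an alternative chosen after the data were seen, gave 46.6%. The X share of regions was 41.4%, and among IDR peaks 58.9%. The cause of these shifts was not tested.

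From a single replicate's list, the number of regions was 222 to 240, the IDR share (with the strongest 327 in its place) 18.5% to 20.4% and the median percentile 88.2 to 89.4. The share of genes with a region was 36.1% to 39.7%, that with an IDR peak 7.19% to 8.50%, and the X share 41.9% to 45.8%. No paired analysis was possible because the results come from no test. With replicate regions matched by summit, also chosen after the data were seen, the IDR members among the strongest 327 of neither replicate were 4 in place of 2. Of the 249 regions 3 had no overlapping region in either replicate.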

Other observations

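The B box letters were also searched, on both strands, in the 101 bp around every pooled summit. They were present in 118 of the 249 tRNA regions (47.4%), where the window does not always reach the B box. They were present in 637 of all 21336 candidates (2.99%) and in 519 of the 21087 others (2.46%). The tRNA share follows from choosing regions near tRNA genes, since 587 of 612 such genes hold these letters, and is no separate result. Among the 271 IDR peaks away from tRNA genes 20 (7.38%) held the letters. The strongest of these had a signal of 346 at rank 4, near the snoRNA gene Y43F8C.22, and next came one of 336 at rank 5, near the snoRNA genes C51F7.4 and C51F7.3. A match is a description of letters, not of a bound site.

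Annotated tRNA pseudogenes, copies that no longer encode a working tRNA, had a region in 25 of 209 cases (11.96%) and an IDR peak in 2. Of the 25 regions at pseudogenes with no tRNA gene near, 11 (44%) held the B box letters, and their median percentile was 60.4. These regions were chosen by nearness to copies of tRNA genes, and the 44% is no separate result either.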
